A study of Mus musculus with 15 samples.

Results

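The myeloid lineage genes described here are Spi1, Cebpa, Cebpe, Csf1r, Lyz2, Itgam, Mpo, Elane, Csf3r and Gata1, which are 10 of the 49554 RefSeq genes on chromosomes 1 to 19 and X of GRCm38, and of the 21631 among them that code for protein. They were chosen by name, with no measured value in the rule. The window of a gene is its RefSeq span with 10 kb added on each side, and it was searched in 12 lists of called intervals from EL4 cells, a T lymphocyte lymphoma line of the C57BL/6N mouse strain. The lists come from ChIP-seq of 5 histone H3 marks (H3K4me3, H3K9ac, H3K27ac, H3K27me3 and H3K36me2) and from ATAC-seq, with 2 replicates of each, all from untreated cells of the same line. The paper calls the replicates technical, so the spread between them holds no variation between cultures. There is no second cell type or treatment in the lists, and neither the RNA-seq nor the input library enters the results, so nothing below measures whether a gene was transcribed.

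Myeloid differentiation is directed by a small set of transcription factors, of which PU.1 (encoded by Spi1) and the C/EBP proteins switch on the receptors, integrins and granule enzymes of monocytes and granulocytes, whereas GATA1 drives the erythroid, megakaryocyte and eosinophil branches. In T cells most of these genes are off, and a silent gene may carry the Polycomb mark H3K27me3 over its span or none of the marks read here. H3K4me3, H3K9ac and H3K27ac mark active promoters and, for H3K27ac, enhancers, ATAC-seq finds open chromatin, and H3K36me2 lies in broad domains over and between genes. In what follows the active marks are H3K4me3, H3K9ac and H3K27ac, and an assay is called for a gene where intervals of both replicates touch the window or region named by at least 1 bp.

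The promoters below, from RefSeq on GRCm38.p6, run from 250 bases before to 50 bases after the listed start, 5′ to 3′ on the gene's strand, with CpG dinucleotides in capitals. They are shown because they differ widely in CpG content and because intervals of these lists reach some of them and miss others: no interval of any list touched the promoter of Cebpa, a replicate of H3K27me3 filled that of Csf3r, a replicate of H3K27ac reached 56 bases of that of Lyz2, and none touched that of Elane. The table matched 7 of the 10 genes, and Spi1, Cebpe and Csf1r had no entry.
Cebpa, chr7:35119043-35119342, plus strand: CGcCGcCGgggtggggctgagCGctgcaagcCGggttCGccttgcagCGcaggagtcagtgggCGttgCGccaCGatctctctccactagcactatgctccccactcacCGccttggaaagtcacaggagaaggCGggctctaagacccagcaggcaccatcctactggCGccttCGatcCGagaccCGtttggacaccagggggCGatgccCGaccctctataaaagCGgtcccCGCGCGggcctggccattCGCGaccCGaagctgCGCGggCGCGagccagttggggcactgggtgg
Csf3r, chr4:126024409-126024708, plus strand: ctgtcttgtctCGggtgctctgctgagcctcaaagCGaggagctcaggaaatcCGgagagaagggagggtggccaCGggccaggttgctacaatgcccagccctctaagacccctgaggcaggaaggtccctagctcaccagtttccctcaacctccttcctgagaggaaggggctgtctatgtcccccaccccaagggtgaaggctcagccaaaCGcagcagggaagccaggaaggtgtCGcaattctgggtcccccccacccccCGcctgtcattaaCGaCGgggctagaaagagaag
Lyz2, chr10:117282223-117282522, minus strand: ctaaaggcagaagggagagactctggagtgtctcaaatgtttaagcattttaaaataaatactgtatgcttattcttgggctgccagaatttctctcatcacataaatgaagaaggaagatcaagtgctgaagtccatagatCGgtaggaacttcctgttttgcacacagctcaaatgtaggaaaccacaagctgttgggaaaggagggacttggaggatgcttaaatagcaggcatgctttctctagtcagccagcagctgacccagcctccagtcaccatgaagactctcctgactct
Elane, chr10:79886062-79886361, plus strand: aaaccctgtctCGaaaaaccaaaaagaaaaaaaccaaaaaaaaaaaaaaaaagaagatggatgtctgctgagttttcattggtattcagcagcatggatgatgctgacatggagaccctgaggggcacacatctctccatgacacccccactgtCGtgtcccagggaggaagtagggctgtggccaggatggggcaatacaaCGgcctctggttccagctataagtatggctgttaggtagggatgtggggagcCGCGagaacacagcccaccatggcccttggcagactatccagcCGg

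The promoter of Cebpa holds 29 CpG, more than 83.1% of the 17274 protein-coding promoters, whose median is 14. The other 6 are poorer in CpG than that median: Csf3r has 9, Itgam and Elane have 6 each, Gata1 has 4, Mpo has 2 and Lyz2 has 1.

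Seen over whole windows, counts of the 10 genes lay near those of coding genes in general. An active mark was called in 6 of the 10 windows, against 59.3% of all protein-coding genes. H3K4me3, H3K9ac and H3K27ac were each called in 6 of the 10 windows, against 57.7%, 56.3% and 57.6% of all, and in all 6 the 3 marks came together, as in 93.6% of the 12822 coding windows with any of them. Over all RefSeq genes, noncoding ones included, the shares of the 3 active marks were lower, at 37.9%, 36.5% and 38.1%. ATAC-seq was called in 6 windows (53.7% of coding genes), H3K36me2 in 5 (53.8%) and H3K27me3 in 2 (24.3%). Sorted by state, 5 windows held active marks without H3K27me3 (51.0% of all), 1 held both (8.23%), 1 held H3K27me3 alone among these (16.0%), 2 held only H3K36me2 or ATAC-seq (4.62%) and 1 held nothing (20.1%). The median window was 34 kb long, against 37.3 kb over all coding genes.

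Of 94 intervals that touched the 10 windows, 34 (36.2%) touched the span of a member and 60 touched a flank only. For the active marks 16 of 51 (31.4%) touched a span and 35 a flank only. Over all coding genes 67.8% of the intervals in a window, and 63.6% of the active ones, touched the span, but spans make up 70.8% of the base pairs of those windows and 46.7% of those of the members, so the shares are not directly comparable. With the flanks removed, an active mark was called on 2 of the 10 genes, Spi1 and Itgam, against 51.2% of all coding genes. Each of the 3 marks was called on those 2, where 49.9%, 48.5% and 49.6% of coding genes had H3K4me3, H3K9ac and H3K27ac. H3K27me3 was called on the spans of Csf1r and Csf3r (16.2% of all), H3K36me2 on that of Csf1r (42.9%) and ATAC-seq on that of Spi1 (44.5%). By state, 2 spans were active (48.2% of all), 0 active with H3K27me3 (3.02%), 2 had H3K27me3 without an active mark (13.2%) and 0 had only H3K36me2 or ATAC-seq (5.05%). The spans of the other 6, Cebpa, Cebpe, Lyz2, Mpo, Elane and Gata1, had no assay called (30.5%). Since spans are a smaller part of the member windows, these counts on spans are not directly comparable with the coding shares either.

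**Figure D1:**
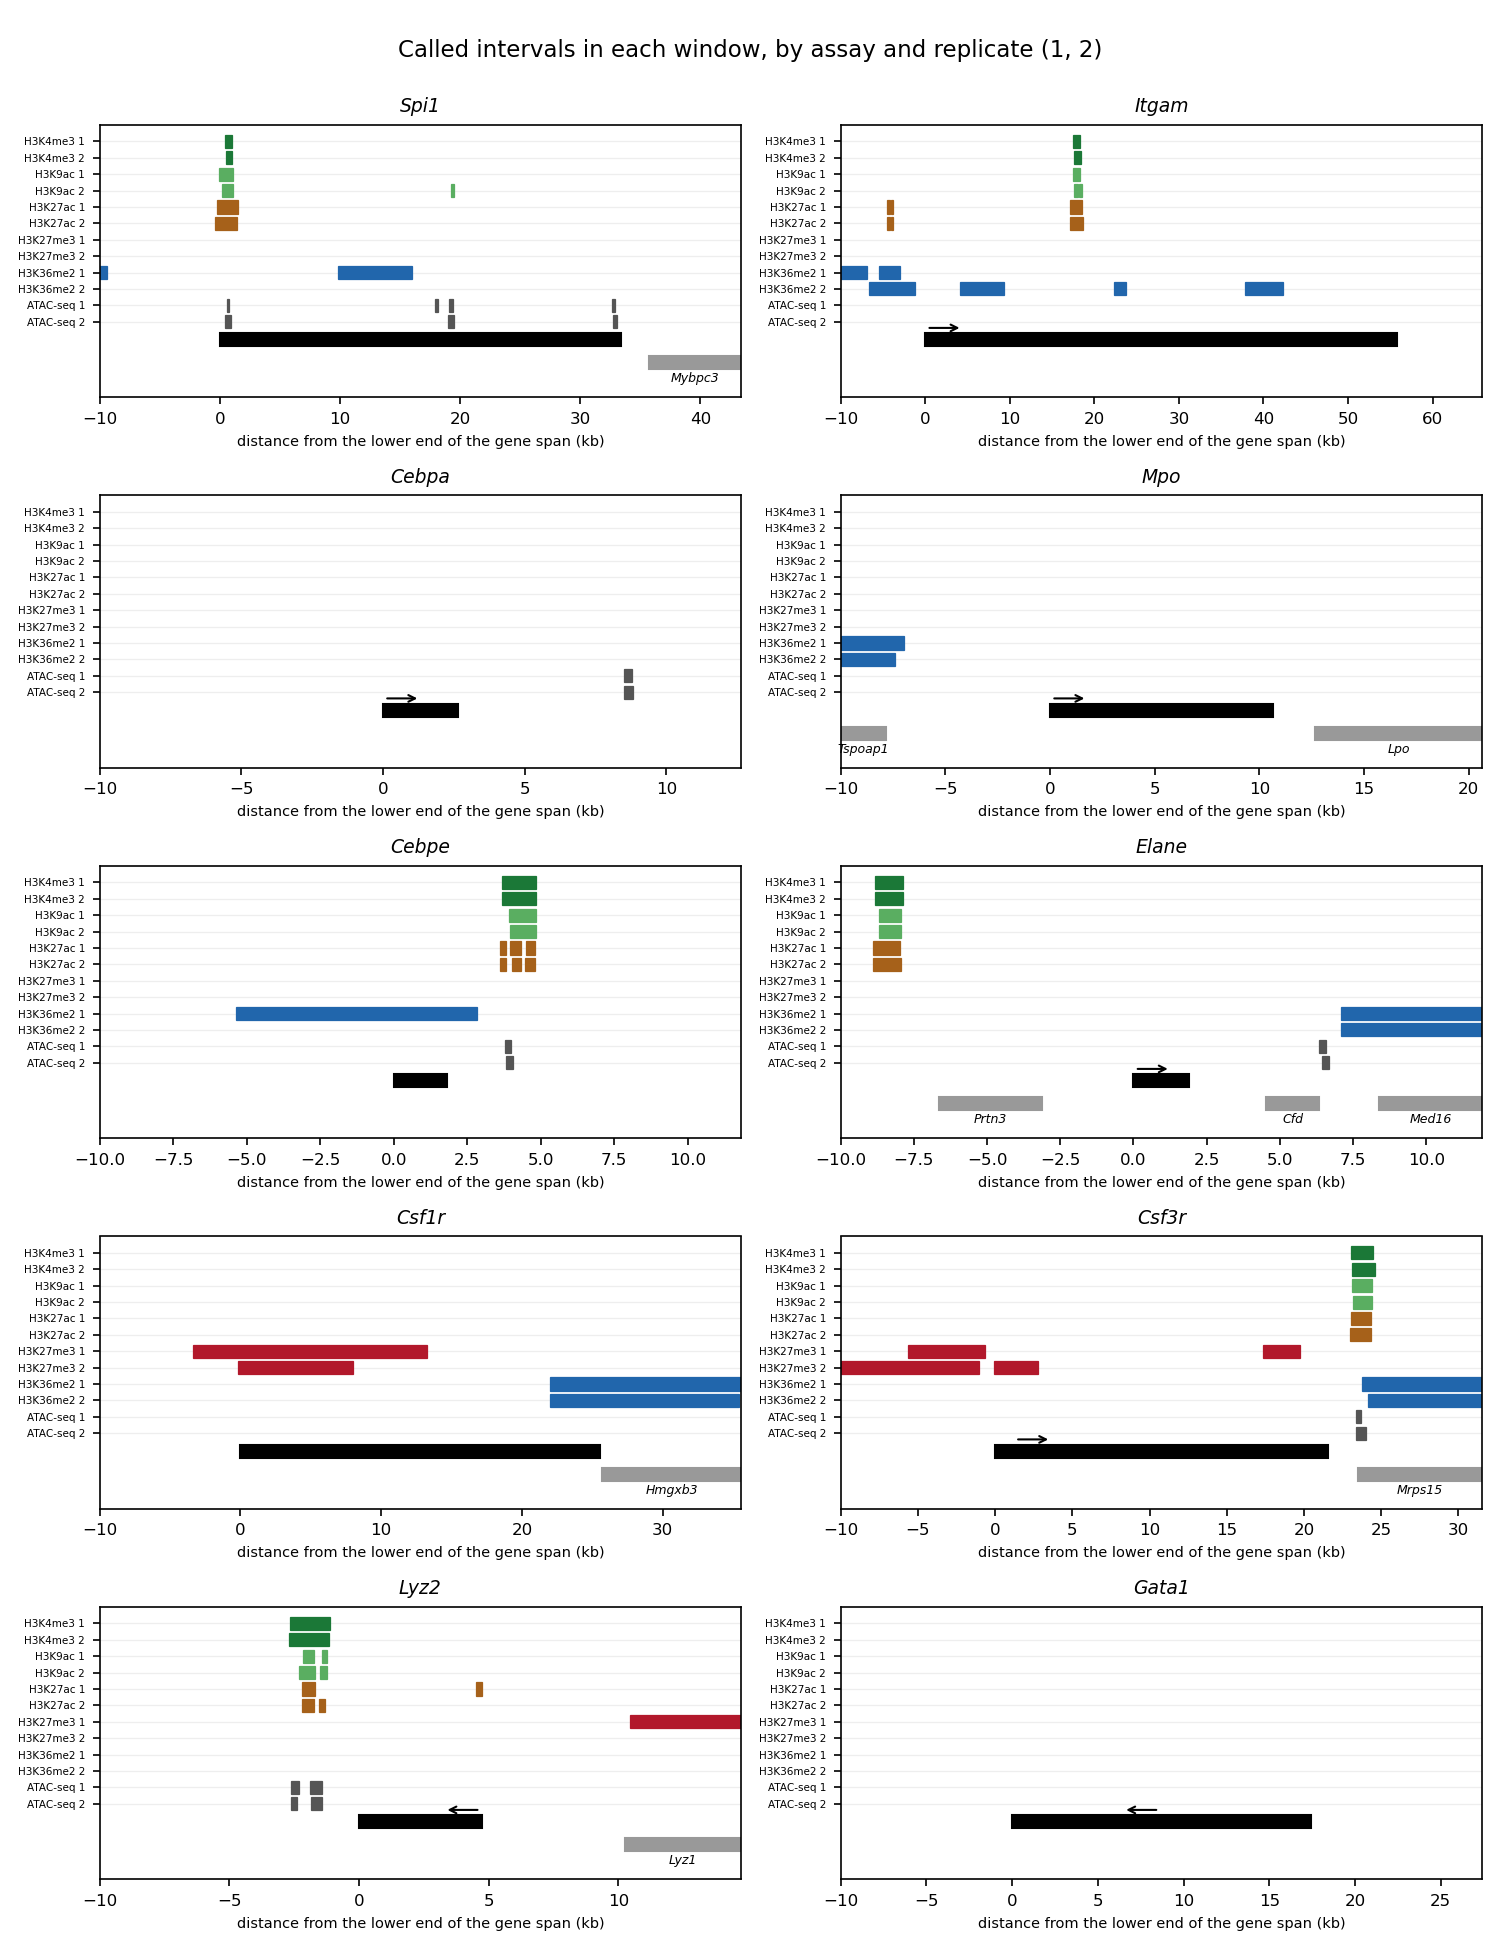
Intervals of each list (rows, replicate 1 and 2 of each assay) in the 10 windows; the horizontal axis is the distance in kb from the lower end of the gene span, the black bar is the gene, grey bars are neighbouring coding genes and an arrow starts at the listed start and points along the gene. Active intervals of both replicates lie on the gene in Spi1 and Itgam, only in the flank in Cebpe, Lyz2, Elane and Csf3r, and nowhere in the other 4 windows.

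Gene starts gave the same count of active genes, 2, but with Cebpe in place of Itgam. They were taken as 3 kb before to 2 kb after the listed start, or at both gene ends for the 3 genes with no listed start. None of the 7 genes with a listed start had an active mark called there, against 47.6% of the 17274 coding genes with one. Of the 3 without a listed start, Spi1 and Cebpe had active marks at an end and Csf1r had H3K27me3. Over all 10, H3K4me3, H3K9ac and H3K27ac were each called at 2 starts (47.0%, 46.4% and 46.6% of coding genes with a listed start), ATAC-seq at the same 2 (42.6%), H3K27me3 at 2 (10.1%) and H3K36me2 at 1, that of Csf1r (26.7%). By state, 2 starts were active (46.5%), 0 active with H3K27me3 (1.05%), 2 had H3K27me3 without an active mark (9.02%), 0 had only H3K36me2 or ATAC-seq (4.47%) and 6 had nothing called (38.9%), namely those of Cebpa, Lyz2, Itgam, Mpo, Elane and Gata1. Since both ends were searched for 3 of the 10, their chance of a call was larger than that of a gene with a listed start.

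Among the transcription factors, Spi1 encodes PU.1, the ETS factor that macrophages and B cells depend on and that is shut off as T cells commit. Its span is chr2:91082374-91115759, and all 3 active marks and ATAC-seq met at its lower end. H3K4me3 covered chr2:91082821-91083379 in replicate 1 and chr2:91082860-91083412 in replicate 2. These intervals were short, 559 and 553 bp, and only 22.7% and 22% of the H3K4me3 intervals of their lists were narrower. H3K9ac spanned 1192 and 946 bp at the same place. H3K27ac was the broadest, from chr2:91082143 to 91083845 (1703 bp) in replicate 1 and from chr2:91081994 to 91083823 (1830 bp) in replicate 2, wider than 80% and 82.6% of the H3K27ac intervals. The narrow H3K4me3 thus sat inside a broad H3K27ac interval in both replicates.

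ATAC-seq added sites further along Spi1. Replicate 1 had 4 intervals on the gene and replicate 2 had 3. Besides the one at the lower end, both replicates had a site 19095 and 18980 bp into the span (chr2:91101469-91101744 and chr2:91101354-91101834) and one close to the upper end (chr2:91115050-91115267 and chr2:91115097-91115436), and replicate 1 alone had chr2:91100312-91100553. In replicate 2 the inner site also carried a 239 bp H3K9ac interval, which replicate 1 lacked. H3K36me2 was called in replicate 1 alone, over 12.8% of the window against 0 in replicate 2. No H3K27me3 lay near: the nearest intervals were 336 and 332 kb away. The reference used here lists no start for Spi1, so which transcript the marked end belongs to was not tested. The nearest coding neighbour, Mybpc3, began 2355 bp past the upper end, away from the marked end.

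Cebpa encodes C/EBPα, which granulocyte-macrophage progenitors need. Its span, chr7:35119293-35121928, and the CpG-rich promoter printed above carried no interval of any list. What the window held was an ATAC-seq site in each replicate, chr7:35127791-35128091 (301 bp) and chr7:35127793-35128130 (338 bp), 8.5 kb past the start and 5863 and 5865 bp beyond the end of the gene, with no histone mark on it. The nearest H3K4me3 was 34.7 and 34.5 kb from the span. H3K27me3 came within 15.3 kb in replicate 1 and 140 kb in replicate 2. Among the 2911 coding promoters with at least 29 CpG, H3K4me3 was called at the start of 74.3% and H3K27me3 at 5.02%, and 21.7%, or 633, resembled Cebpa in having no active mark and no H3K27me3. This comparison was chosen after the values of Cebpa had been seen.

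Cebpe encodes C/EBPε, which acts late in granulocyte maturation. Its own 1812 bp (chr14:54710363-54712174) carried no active mark, but a compact active site lay just beyond the upper end. H3K4me3 covered chr14:54714042-54715210 in replicate 1 and chr14:54714040-54715205 in replicate 2, which is 1169 and 1166 bp beginning 1868 and 1866 bp from the gene. H3K9ac spanned 902 and 869 bp there, H3K27ac was split into 3 intervals of 200 to 370 bp in each replicate, and ATAC-seq marked 224 and 242 bp at the near edge. All 4 assays gave the site in both replicates. No coding gene other than Cebpe lay in the window, and the nearest one to the site, Slc7a8, was 7 kb from it. H3K36me2 covered the whole gene in replicate 1 (chr14:54705001-54713199, 37.6% of the window) and was missing from replicate 2, so the only interval on the gene itself rests on 1 replicate.

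Gata1, the erythroid and megakaryocyte regulator (chrX:7959260-7976663), was the only member with no interval of any of the 12 lists in its window. H3K4me3 came nearest, 10.6 kb from the span in both replicates and so just outside the window, and ATAC-seq lay 11 kb away. H3K27me3 was 491 and 376 kb away and H3K36me2 185 and 177 kb. Chromosome X as a whole was sparse in these lists: 57.3% of its 966 coding genes had nothing called in the window, against 18.3% on the autosomes, and H3K27me3 was called for 4.35% against 25.2%. The methods state that reads on chromosome X were discarded, whereas each list holds between 331 and 732 intervals there, and the part of this in the empty window of Gata1 was not tested.

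Of the receptors, Csf1r, the receptor of macrophage colony-stimulating factor, carried H3K27me3 in both replicates. Its span is chr18:61105572-61131139. H3K27me3 ran from chr18:61102201 to 61118799 (16599 bp) in replicate 1 and from chr18:61105401 to 61113599 (8199 bp) in replicate 2. Both intervals cover the lower end of the gene and reach well into it, and they were wide for this mark, with 96.4% and 68.5% of the intervals of their lists narrower. They filled 36.4% and 18% of the window, 27.2% ± 13 (SD, n = 2), and the 8199 bp of replicate 2 lay wholly within the interval of replicate 1. Neither an active mark nor ATAC-seq was called in the window, and the nearest H3K4me3 was 44.8 and 44.7 kb off. H3K36me2 took the other end: it began at chr18:61127601 in both replicates, covered the last 3539 bp of the gene and ran on into Hmgxb3, a gene that lies 138 bp away, filling 29.7% and 29.4% of the window. The 2 broad marks did not overlap on Csf1r in either replicate.

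Csf3r, the receptor of granulocyte colony-stimulating factor (chr4:126023441-126044975), also had H3K27me3, but its replicates placed it differently. Replicate 1 had an interval of 4999 bp ending 642 bp before the span (chr4:126017801-126022799) and another of 2399 bp far inside the gene (chr4:126040801-126043199). Replicate 2 had 16599 bp before the span (chr4:126005801-126022399) and 2799 bp over the start (chr4:126023401-126026199), which holds the whole promoter printed above. The mark filled 17.8% and 28.3% of the window, 23.1% ± 7.42 (SD, n = 2). The base pairs that both replicates shared came to 4599 of the 14557 covered by either, all of them before the gene, so H3K27me3 on the gene body rested on 1 replicate at each place. This upstream stretch lies on Gm32908, a long noncoding RNA gene on the other strand that overlaps Csf3r.

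The active marks in the window of Csf3r belonged by position to its neighbour. H3K4me3 at chr4:126046514-126047940 and chr4:126046535-126048050 covered the listed start of Mrps15, a mitochondrial ribosomal protein gene, between 21855 and 23391 bp past the start of Csf3r. H3K9ac, H3K27ac and ATAC-seq of both replicates fell on the same site, and H3K36me2 continued along Mrps15 for 18.7% and 17.8% of the window. The window of Csf3r, the only one with both active marks and H3K27me3 called, therefore held them at separate places, at least 1428 bp beyond the gene for the active marks and on and before the gene for H3K27me3.

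Itgam encodes CD11b, the integrin alpha chain of macrophages, neutrophils and natural killer cells. The gene is long (chr7:128062640-128118491) and its active site lay inside it, with H3K4me3 beginning 17502 and 17628 bp past the start. H3K4me3 was found at chr7:128080142-128080928 (787 bp) in replicate 1 and as 522 and 231 bp in replicate 2, and H3K9ac was divided in the same way, with 759 bp in replicate 1 and 529 and 384 bp in replicate 2. H3K27ac covered the whole site unbroken, 1517 and 1585 bp. There was no ATAC-seq interval on it: the nearest were 68.7 and 40.3 kb from the gene. Over all lists 68.1% and 72.1% of the H3K4me3 intervals of replicates 1 and 2 were touched by ATAC-seq of the same replicate, so a site without it is not rare. Upstream of the start, H3K27ac was the active mark that gave a pair of short intervals in both replicates, at positions -4487 to -3782 bp from it, and H3K36me2 covered them, from -5439 to -3041 in replicate 1 and from -6639 to -1241 in replicate 2. The start and promoter had no active mark. The 2399 bp over this H3K27ac pair were the only H3K36me2 in the window that the replicates shared. H3K36me2 had 2 intervals and 7.33% of the window in replicate 1 and 4 intervals and 21.9% in replicate 2, and H3K27me3 was absent.

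No mark was found in both replicates on the span of a granule enzyme gene. Lyz2, the lysozyme of macrophages and neutrophils (chr10:117277541-117282272, read from the upper end), had an active site past its 3′ end. H3K4me3 covered chr10:117274881-117276427 (1547 bp) and chr10:117274841-117276400 (1560 bp), ending 1114 and 1141 bp from the gene and lying 5845 to 7431 bp downstream of its start. H3K9ac and ATAC-seq each gave 2 intervals in each replicate there and H3K27ac gave 488 bp in replicate 1 and 497 and 221 bp in replicate 2. No other RefSeq gene lies at this site, and the nearest coding gene apart from Lyz2 was Lyz1, 11.4 kb off. At the start of Lyz2 itself replicate 1 of H3K27ac had 235 bp (chr10:117282044-117282278), from 6 bp before to 228 bp after the start, and replicate 2 had none. An H3K27me3 interval of 19799 bp in replicate 1 lay over Lyz1 and its start and entered the window (17.3% of it). In replicate 2 the nearest H3K27me3 lay on the same side, 14.1 kb from Lyz2 and so beyond the window. The window of Lyz1 itself held H3K27me3 in both replicates (59.3 and 25.8% of it), so the replicates differed in how far the mark reached towards Lyz2.

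Mpo encodes myeloperoxidase of the azurophil granules (chr11:87793784-87804412). Its window held H3K36me2 and nothing else: chr11:87774601-87786799 and chr11:87774601-87786399, over 9.85% and 8.54% of the window. These intervals lay on Tspoap1 and on the long noncoding RNA gene Gm34064 and stopped 6985 and 7385 bp short of Mpo. The nearest H3K27ac was 22.8 kb away, the nearest H3K4me3 34.3 and 34.6 kb, and H3K27me3 lay 15.8 and 14 kb away, so neither kind of mark reached the 10 kb flank.

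Elane encodes neutrophil elastase (chr10:79886312-79888216) and sits in a cluster with Prtn3, which encodes proteinase 3, and Cfd, which encodes complement factor D. The active site in its window was on the far side of Prtn3: H3K4me3 at chr10:79877477-79878447 (971 bp) and chr10:79877468-79878440 (973 bp), H3K9ac of 755 and 726 bp and H3K27ac of 899 and 990 bp. The site ended 1.22 kb before the listed start of Prtn3 and 7865 bp before that of Elane, and ATAC-seq did not touch it in either replicate. By position it belonged to Prtn3, at whose start all 3 active marks were called. The same site counts for Prtn3 among the granule and phagocyte genes below. ATAC-seq instead marked chr10:79892661-79892897 and chr10:79892760-79892997, beginning 6 and 105 bp past the end of Cfd. H3K36me2 over Med16, a Mediator subunit gene, took 22% of the window in both replicates. Elane and its printed promoter were free of every mark.

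**Figure D2:**
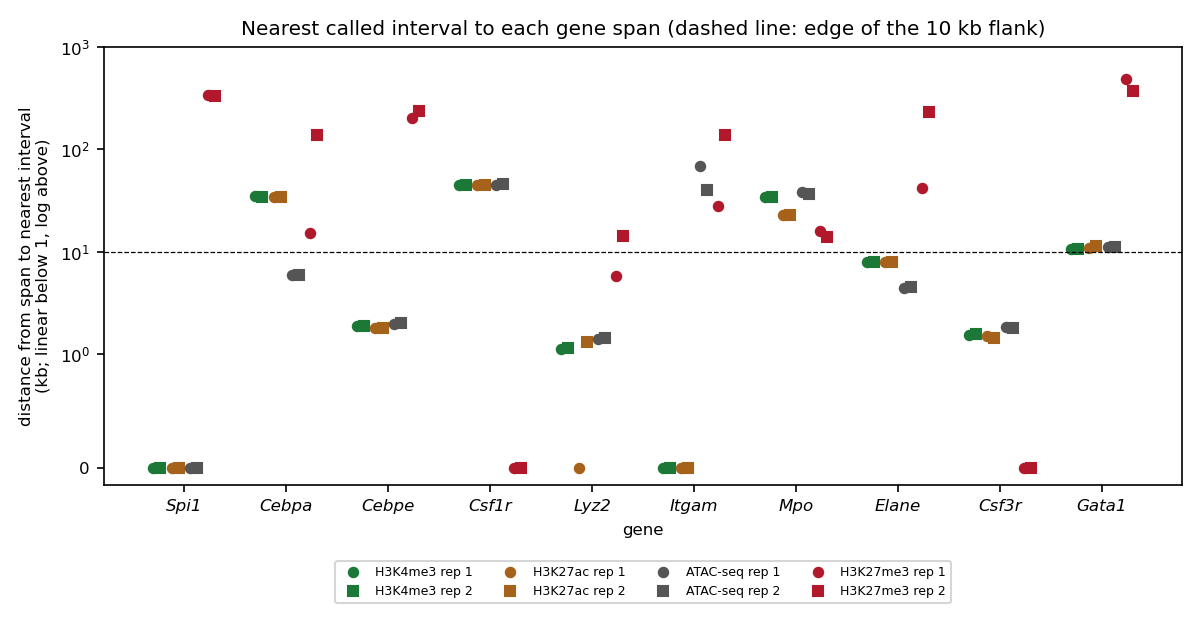
Distance in kb from each gene span to the nearest H3K4me3, H3K27ac, ATAC-seq and H3K27me3 interval (circles replicate 1, squares replicate 2; the axis is linear below 1 kb and logarithmic above, and 0 means on the gene). Spi1 and Itgam have H3K4me3 at 0, Csf1r and Csf3r have H3K27me3 at 0, and Gata1 has its nearest H3K4me3 at 10.6 kb, outside the dashed edge of the window.

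Coverage of the windows was repeatable for the narrow marks and less so for the broad ones. The mean over the 10 windows was 2.16 and 2.18% for H3K4me3, 1.66 and 1.72% for H3K9ac, 2.03 and 2.09% for H3K27ac and 0.909 and 1.03% for ATAC-seq in replicates 1 and 2. Over all coding genes these means were higher, at 4.08 and 4.02%, 3.55 and 3.53%, 4.01 and 4.07%, and 1.22 and 1.37%. H3K36me2 covered 13.8 and 9.96% of the member windows, against 25.2 and 24.8% of all, and H3K27me3 7.15 and 4.63%, against 8.15 and 9.32%. Means and medians did not order the same way throughout: the median H3K27ac coverage of the members, 2.8 and 2.85%, was above the 1.55 and 1.57% of all genes. The same held for H3K9ac (1.62 and 1.71% against 1.34 and 1.35%) and ATAC-seq (0.871 and 1.1% against 0.469 and 0.576%). The median for H3K4me3 was below (1.04 and 1.01% against 1.82 and 1.79%). For H3K36me2 it was above in replicate 1 and below in replicate 2 (11.3 and 4.27% against 9.79 and 9.59%). No test was made of these differences, because the lists are of 1 cell line and the genes were picked by name.

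Calls that rested on a lone replicate were confined to the broad marks in these windows: H3K27me3 for Lyz2 (8.89% of all coding genes have H3K27me3 in 1 replicate only) and H3K36me2 for Spi1 and Cebpe (6.69%). For H3K4me3, H3K9ac, H3K27ac and ATAC-seq, 0 members had a window with intervals of 1 replicate only, against 0.550%, 0.717%, 0.911% and 3.99% of coding genes.

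**Figure D3:**
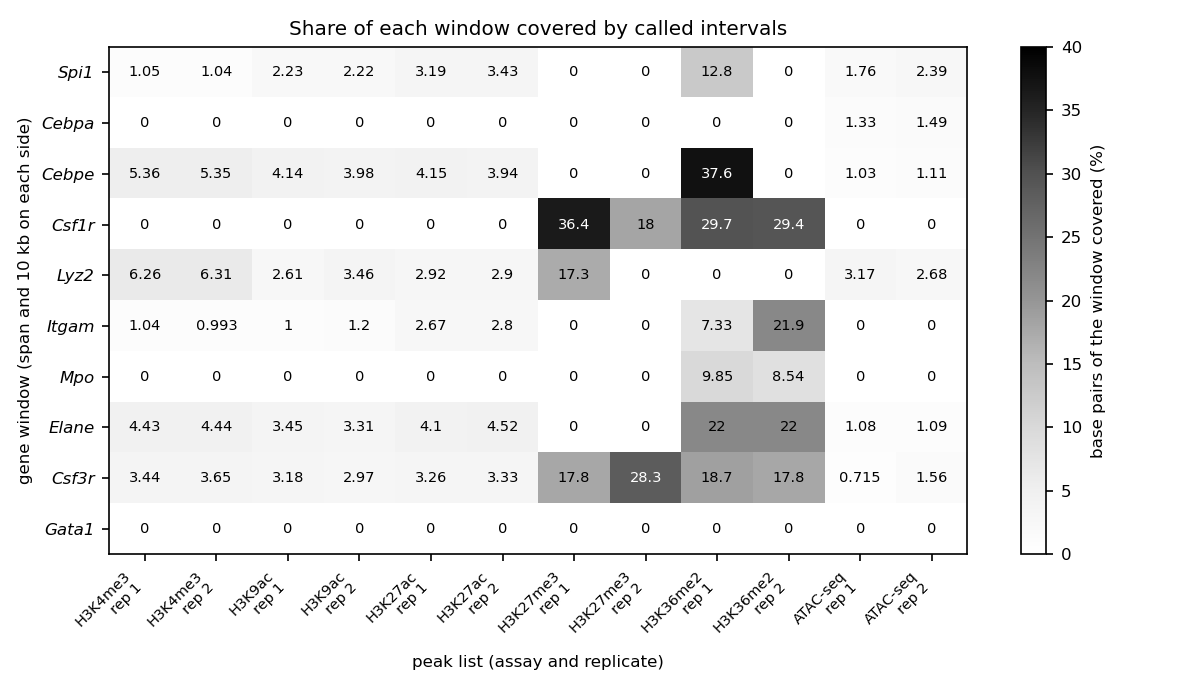
Percent of the base pairs of each window covered by intervals of each list, with the value printed in each cell and darker shades for higher values. The H3K27me3 columns are above 0 for Csf1r, Csf3r and, in replicate 1 alone, Lyz2, and the row of Gata1 is 0 throughout.

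Short motifs of lineage factors were searched in the 7 promoters on both strands, with positions counted from the start. AGGAAGT, an ETS motif of the kind PU.1 binds, was found in Lyz2 (-100 to -94, on the opposite strand), in Mpo (-223 to -217) and in Elane (-84 to -78), and 9.38% of the 32619 promoters in the table hold it. TTGCGC, which forms part of the C/EBP palindrome, was found in Cebpa (-185 to -180), and 6.48% of promoters hold it. TGTGGT, the RUNX core, was found in Lyz2 (-66 to -61, on the opposite strand), and 16.6% of promoters hold it. The motif of the GATA family that was searched, AGATAA, was in none of the 7, against 11.2% of promoters. No motif overlapped another. Of the 4 promoters with a match, that of Lyz2 met an interval, from H3K27ac of replicate 1, and the others met none.

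Wider lists give the states of other genes of the same lineage. As for the members, both gene ends were searched where no start was listed. Of 17 further myeloid regulators and receptors, 7 had active marks at the start, 2 had H3K27me3, 1 had only H3K36me2 or ATAC-seq and 7 had nothing called. Over coding genes with a listed start, 46.5% were active and 9.02% had H3K27me3 without an active mark. A further 4.47% had only H3K36me2 or ATAC-seq and 38.9% had nothing, so the counts of this list lay near those of coding genes. The same shares apply to the starts of the lists below. The 7 active ones included factors that T cells also use: H3K27ac covered 87.1 and 93.1% of the start window of Gfi1, a repressor shared by granulocytes and T cells, and 65.9 and 68.8% of that of Id2, an inhibitor of E proteins. Cebpb had 50.8 and 52.4% and Il3ra, the interleukin-3 receptor alpha chain, 42 and 45.6%. H3K27me3 was called for the chemokine receptor gene Cx3cr1 (23.3 and 28.3% of the window) and the shared cytokine receptor chain gene Csf2rb (15 and 24.3%), whereas Il3ra had no H3K27me3 called.

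Of 28 further granule and phagocyte genes, 7 had active marks at the start, 5 had H3K27me3, 2 had only H3K36me2 or ATAC-seq and 14 had nothing called. The active ones were led by Cyba, a phagocyte oxidase subunit (41.8 and 41.9% H3K27ac), Itgb2, the integrin beta chain that pairs with the product of Itgam (41.8 and 38.4%), the signalling adaptor gene Tyrobp (30.7 and 32.1%) and another oxidase subunit gene, Ncf4 (26.6 and 26%). H3K27me3 in this list filled 96.5 and 100% of the window of S100a9, 84.7 and 80.9% of that of S100a8, the other calprotectin subunit, and 93 and 94.9% of that of Ms4a3. Mrc1, the macrophage mannose receptor, had 41.3 and 47.2%, and its window also had H3K4me3 called (0.493 and 0.355%). In the window, nothing was called for 5 genes of this list (20.1% of all coding genes), Ctsg, Ltf, Cybb, Itgax and Ctss, which are named after their values were seen. Lone replicates did reach some of them. Itgax had H3K27me3 in replicate 1 (14.1%) and ATAC-seq in replicate 2 (0.486%), and Ctss had H3K36me2 in replicate 1 (7.25%). Cybb lies on chromosome X, where 57.3% of coding genes had nothing called.

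The erythroid and megakaryocyte list, the lineage of Gata1, had active marks at 4 of 15 starts, H3K27me3 at 1, only H3K36me2 or ATAC-seq at 3 and nothing at 7. Zfpm1, which encodes the GATA1 partner FOG1, had H3K27ac over 72.1 and 74.4% of its start window, and Nfe2 (31.9 and 31%), Klf1 (28.1 and 28.6%) and Gfi1b (14.2 and 11.6%) followed. H3K27me3 was called for Hba-a1, an alpha globin gene (29.8 and 39.4% of the window), and Itga2b (28.2 and 18%). The window of Hba-a1 held no other mark. That of Itga2b also had all 3 active marks and ATAC-seq called (H3K4me3 over 5.72 and 5.52%), and its start had H3K36me2 but no H3K27me3.

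T lineage genes, which check the label of the line, carried active marks almost throughout: 16 of 17 had H3K4me3 at the start, the exception being Ets1, and H3K27ac filled 98.8 and 98.1% of the start window of Zap70 and 94.5 and 95% of that of Cd3d. Among 13 B lineage genes, 3 had active marks at the start, 2 had H3K27me3, 1 had only H3K36me2 or ATAC-seq and 7 had nothing. The active ones were Vpreb1 (H3K27ac over 27.9 and 21.3% of the start window), Btk (21.8 and 20.8%) and Igll1 (10.1 and 11.3%). At the start of Igll1, H3K27ac was the only active mark called. Vpreb1 and Igll1 both lie on chromosome 16, and whether the same intervals counted for both was not tested. By window, 6 were active (51.0% of coding genes), 1 was active with H3K27me3 (8.23%) and 4 had H3K27me3 without an active mark (16.0%). Ms4a1, which encodes CD20, had H3K27me3 over 88.1 and 99.1% of its window, and Ebf1 had it over 60.9 and 62.3%. Counted by the same rule, active marks stood at 2 of 10 starts of the members and at 16 of 17 starts of the T lineage genes. Of coding genes with a listed start, 47.6% had one. A start was listed for 7 of the 10 members and for 13 of the 17 T lineage genes, and both ends were searched for the rest. The 2 active members, Spi1 and Cebpe, were among those without a listed start.

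**Figure D4:**
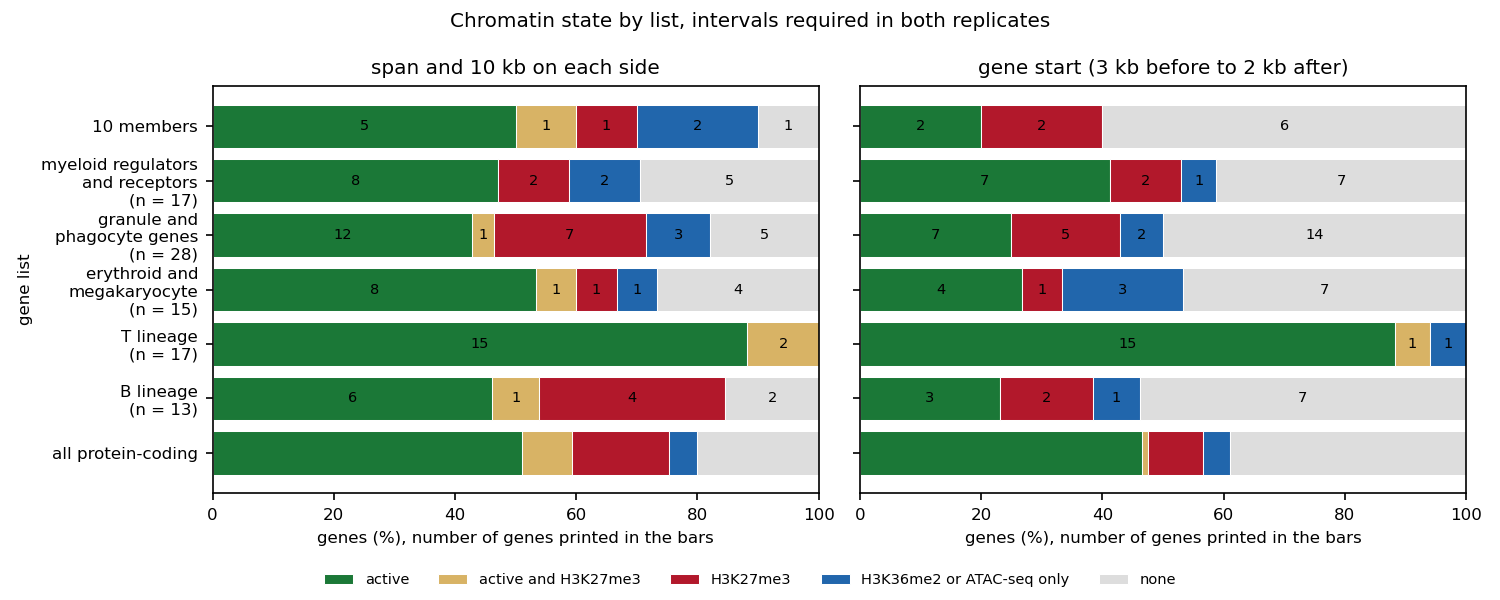
Share of the genes of each list in each chromatin state (percent, with the number of genes printed in the bars), for the window on the left and the gene start on the right. The members have 5 active windows and 2 active starts of 10, whereas the T lineage genes are active at 15 starts, with 1 more active and with H3K27me3, of 17.

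By the 12 coverage values of the window, the gene of these lists most like Spi1 was Prtn3 (Euclidean distance 5.13 percentage points), and those most like Cebpe were Cebpd (16.4), Il3ra (20.7) and Vpreb1 (22.6). The distance is larger for Cebpe, whose H3K36me2 of 37.6% came from 1 replicate. Windows of different length enter this measure on the same percent scale. A small distance does not mean the same state, since broad marks weigh most in it. The window of Cebpd held H3K36me2 (29.6 and 8.98%) and no active mark or ATAC-seq interval, unlike that of Cebpe.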

How the data were processed

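ChIP-seq of 5 histone marks and ATAC-seq of EL4 cells were used, with 2 replicates each. According to the methods, the authors aligned reads with STAR 2.5, kept unique alignments, treated duplicates with Picard, called H3K4me3, H3K9ac, H3K27ac and ATAC-seq intervals with MACS2 and H3K27me3 and H3K36me2 intervals with Epic, with the input as control for ChIP-seq. The 12 deposited lists give chromosome, start and end of each interval in base pairs, separately for each replicate, with no score, count or p-value, so the depth is unknown and no counting interval was computed. They hold 17519 to 46015 intervals each. Broad intervals lie on bins, which limits the precision of their ends. The labels give the build as GRCm38.

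Gene spans, listed starts and promoters were those of RefSeq on GRCm38.p6. Overlaps were computed with Python 3.11.15, numpy 2.4.6 and pandas 2.3.3, tested on simulated data and checked with bedtools 2.31.1 on 594648 gene windows by list, of which 0 differed. An interval counted from 1 bp of overlap, and an assay was called where both replicates had one. All results are counts and coverages, and no test was run. The alternatives were flanks of 0, 5 and 25 kb, an overlap of 200 bp, intervals of at least 500 bp (narrow) or 2000 bp (broad), either replicate, each replicate alone, shared or pooled base pairs, a start window of 1 kb on either side, and other gene backgrounds. All 10 members are named. Neighbouring coding genes are named where a named interval touches them, and others as nearest coding gene, chosen after the values were seen. Of the other lists, up to 4 genes with the highest H3K27ac at an active start and up to 4 with the highest H3K27me3 are named, and up to 3 genes most like each member with an active start, some of which are not reported here. The members and all lists were chosen with earlier results of these data known. The input and both RNA-seq libraries (3 of 15 samples) were not used here.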

Additional observations from a re-analysis of the deposited data

How the results depend on the processing

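No paired analysis was possible because the results come from no test. The flank decided most counts. With a flank of 0 kb, 2 genes were active, 0 active with H3K27me3, 2 had H3K27me3, 0 only H3K36me2 or ATAC-seq and 6 nothing, with H3K4me3, H3K9ac and H3K27ac on 2 each and H3K36me2 and ATAC-seq on 1 each. With 5 kb, 1 gene had only H3K36me2 or ATAC-seq, 3 had nothing and H3K36me2 was called for 3. With 25 kb, 3 genes were active with H3K27me3 (Lyz2, Mpo and Csf3r), 1 had only H3K36me2 or ATAC-seq (Cebpa), 0 had nothing and H3K27me3 was called for 4. With an interval of either replicate, 2 windows were active with H3K27me3 and 1 start had only H3K36me2 or ATAC-seq. With 1 replicate left out, the windows active with H3K27me3 numbered 1 to 2 (2 without replicate 2, by Lyz2) and the starts with only H3K36me2 or ATAC-seq 0 to 1 (1 without replicate 1, by Itgam). With intervals of at least 500 or 2000 bp, 1 window had only H3K36me2 or ATAC-seq, 2 had nothing and ATAC-seq was called for 0. The median ATAC-seq interval was 418 bp wide in replicate 1 and 428 bp in replicate 2, below that 500 bp limit. The share of coding genes at this setting is not given, so the 0 cannot be read as a trait of the members. With 1 kb on either side of the start, 1 start was active and 1 had H3K27me3, since Cebpe and Csf3r then had nothing called.

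Median coverage of the windows (means of 2 replicates: 1.03% H3K4me3, 1.66% H3K9ac, 2.82% H3K27ac, 0% H3K27me3, 7.79% H3K36me2, 0.985% ATAC-seq) moved with the flank as well. It was 0% for all 6 with 0 kb. In that order of assays, leaving out H3K27me3, it was 0.585, 0.635, 1.58, 0.744 and 0.735% with 5 kb. With 25 kb it was 2.49, 1.4 and 1.84% for the active marks, 1.33% for H3K27me3 and 18.1% for H3K36me2. Over base pairs covered in both replicates it was 0.897, 1.33, 2.25, 1.58 and 0.673%, and in either replicate 1.16, 2, 3.16, 15.8 and 1.37%. With 1 replicate left out it was 4.27 to 11.3% for H3K36me2 (4.27% without replicate 1), and 1.01 to 1.04, 1.62 to 1.71, 2.8 to 2.85 and 0.871 to 1.1% for H3K4me3, H3K9ac, H3K27ac and ATAC-seq. Between 2 replicates, such a move cannot be judged against their SD. The share of genes called for H3K4me3, H3K9ac, H3K27ac, H3K27me3, H3K36me2 and ATAC-seq was 37.9, 36.5, 38.1, 23.1, 38.4 and 34.3% over all RefSeq genes and 58.7, 57.3, 58.6, 25.2, 55.9 and 54.7% over autosomal coding genes. The other recomputed counts of members stayed within 1.5 times the count reported. The depth behind the lists is unknown, so a window without an interval may hold signal under the threshold of the caller.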
